A study of Homo sapiens with 30 samples.

Results

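In LNCaP cells, 522 regions of open chromatin were listed as accessible at every dose of the synthetic androgen R1881, from the lowest dose of 0.03 nM upwards, and in no library from vehicle-treated cells. LNCaP is an established human prostate cancer line that carries an androgen receptor and responds to androgen. The regions were chosen from the 100000 strongest spans, by −log10 p, in the peak list of 0.03 nM replicate 3, on chromosomes 1 to 22 and X. A span was kept if it overlapped one of the 100000 strongest spans in each of the other 11 libraries with R1881 and no entry at all in the 3 vehicle lists. This left 711 spans, of which 189 were dropped because all 3 libraries of VCaP cells at 10 nM, and no VCaP vehicle library, had an entry there. VCaP is a second androgen-responsive prostate cancer line. The presence of these regions with R1881, their absence with vehicle, and the missing 10 nM response pattern in VCaP are therefore how they were chosen and not results.

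The androgen receptor is a transcription factor that moves into the nucleus and binds DNA once androgen occupies it, mostly at distal enhancers. It commonly binds together with forkhead, HOXB13, GATA and NFI factors, which hold chromatin open in prostate cells. Binding sites that become accessible with hormone are cut more often by the Tn5 transposase, the enzyme that ATAC-seq uses to insert adapters into open DNA.

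The series holds 30 Omni-ATAC-seq libraries, 15 from LNCaP and 15 from VCaP, with 3 libraries in each group. Cells of both lines were kept in serum stripped of steroids with charcoal and then received R1881 or vehicle for 24 hours. LNCaP groups received vehicle or 0.03, 0.06, 0.1 or 10 nM R1881 and have replicates 3, 4 and 5. VCaP groups received vehicle or 0.01, 0.03, 0.06 or 10 nM and have replicates 1, 2 and 4. The labels do not say whether replicates are separate cultures, so p-values measure the spread between these libraries, which may be technical. Each line is a single culture model grown without stroma, and all its groups shared the steroid-poor medium.

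Each LNCaP list had between 135254 and 223998 entries, and no read totals come with them. Relative depth, read as the background pileup solved from each list, was 3.06 to 5.26 in the LNCaP libraries. Entries overlapped all 10 of 10 prostate luminal marker genes, among them KLK3 and FOXA1, in every LNCaP library. They overlapped 4 to 6 of 7 basal genes, 4 to 6 of 7 stromal genes, 2 to 5 of 6 immune genes and 6 or 7 of 7 neuroendocrine genes, and COL3A1, a stromal collagen gene, had an entry in no library. Replicate 5 of 2 groups stood apart in fold enrichment, the ratio of a summit to its local background. The median over regions listed in all 15 LNCaP libraries was 5.52 in 0.03 nM replicate 5 and 4.56 in vehicle replicate 5, against 8.47 and 8.83 in 0.03 nM replicates 4 and 3, and 9.07 and 9.74 in vehicle replicates 4 and 3. At 0.06, 0.1 and 10 nM replicate 5 had 9.41, 9.96 and 10.7, against 9.68 to 11.2 in the other replicates.

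Of the 34961 promoters analysed, 2 overlapped one of the 522 regions. The promoter table used gives starts for 15811 of 19970 protein-coding genes, so the promoters of some genes were not analysed here. The sequences are shown because a region overlaps them. Both belong to long non-coding RNA genes. The sequences are from RefSeq on GRCh38.p14 and run 5′ to 3′ along the gene, from 250 bases before the annotated start to 50 after it. Capitals mark matches to the short androgen receptor site AGAACA, one arm of the full site, and, in the first, the 15 bases of an imperfect full site.
LINC00844 (chr10:58999268-58999567, plus strand): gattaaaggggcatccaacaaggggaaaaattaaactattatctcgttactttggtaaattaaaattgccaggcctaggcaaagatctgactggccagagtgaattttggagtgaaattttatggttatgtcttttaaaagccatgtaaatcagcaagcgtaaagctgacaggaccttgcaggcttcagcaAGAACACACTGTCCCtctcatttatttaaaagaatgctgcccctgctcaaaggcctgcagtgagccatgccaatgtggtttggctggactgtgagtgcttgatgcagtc
LINC02511 (chr4:137212750-137213049, minus strand): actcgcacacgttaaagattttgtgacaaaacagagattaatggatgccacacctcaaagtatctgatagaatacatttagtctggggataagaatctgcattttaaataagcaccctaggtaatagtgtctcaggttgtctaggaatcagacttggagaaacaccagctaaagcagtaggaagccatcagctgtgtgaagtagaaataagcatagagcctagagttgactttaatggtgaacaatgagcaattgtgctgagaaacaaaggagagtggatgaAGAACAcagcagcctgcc

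The region at LINC00844 (chr10:58999124-58999632) had its summit 22 bp upstream of the annotated start. The imperfect site begins 59 bases before that start and reads AGAACACACTGTCCC. Set against the full site, which is AGAACA, 3 bases of any kind and TGTTCT, it differs by T13C and T15C, counted from 1 at the site's 5′ end. A match to that full site with up to 2 mismatches, on either strand, was present in 1.42% of 34961 promoters of the same length, and an exact match in 0.0029%. The LINC02511 promoter held no such match, and its short site lies 32 bases past the start, outside the region. The short site on either strand was present in 14.8% of the promoters, and it overlaps the full site by construction. The summit of the region at LINC02511 (chr4:137212851-137213293) lay 208 bp upstream of the start, and the start itself lay outside the region. GC content was 43.0% and 41.0% in these promoters, against a median of 58.7% over all of them.

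Both regions moved with dose. At LINC00844 the percentile rank, which is the place of a region's strongest entry within the 100000 strongest spans of its library on a scale from 0 to 100, averaged 38.0 ± 12.7 at 0.03 nM, 64.8 ± 6.74 at 0.06 nM, 81.7 ± 2.29 at 0.1 nM and 90.7 ± 2.68 at 10 nM (SD, n = 3 each). The libraries at 10 nM had 89.0, 89.3 and 93.8, against 52.4, 32.7 and 28.7 at 0.03 nM, so the groups did not overlap. The difference was 52.8 points (SE 5.55, limma adjusted p = 2.75e-05). At LINC02511 the mean was 52.7 ± 7.15 at 0.03 nM, 74.0 ± 5.22 at 0.06 nM, 82.1 ± 1.01 at 0.1 nM and 81.9 ± 1.02 at 10 nM. Its difference of 10 nM from 0.03 nM was 29.2 points (SE 3.93, adjusted p = 0.000146), while that of 10 nM from 0.1 nM was −0.25 points (adjusted p = 1.0). The LINC00844 region had an entry in all 15 VCaP libraries, and the LINC02511 region in none.

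The median rank of the 522 regions, averaged over the libraries of a dose, stood higher at each higher dose, though not every region did. The median rank in the 3 libraries was 43.4, 41.6 and 37.9 at 0.03 nM, 56.4, 58.4 and 50.5 at 0.06 nM, 63.2, 62.8 and 57.7 at 0.1 nM, and 68.3, 64.6 and 64.0 at 10 nM. No library of one dose overlapped with a library of the next dose except at 0.06 and 0.1 nM, where 0.06 nM replicate 4 lay above 0.1 nM replicate 5. A comparison set, called always-listed below, held 50371 regions. These were among the 100000 strongest spans in all 12 treated LNCaP libraries and had an entry in all 3 vehicle lists. Always-listed regions had medians of 71.3 to 72.1 at 10 nM, against 74.1 to 74.3 at 0.03 nM. The rule asked for the same presence at each dose, among the 100000 strongest spans of every treated library. It also asked for no entry with vehicle, which favours regions that are weak at low doses. A higher rank at higher doses is therefore not independent of the rule.

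**Figure D1:**
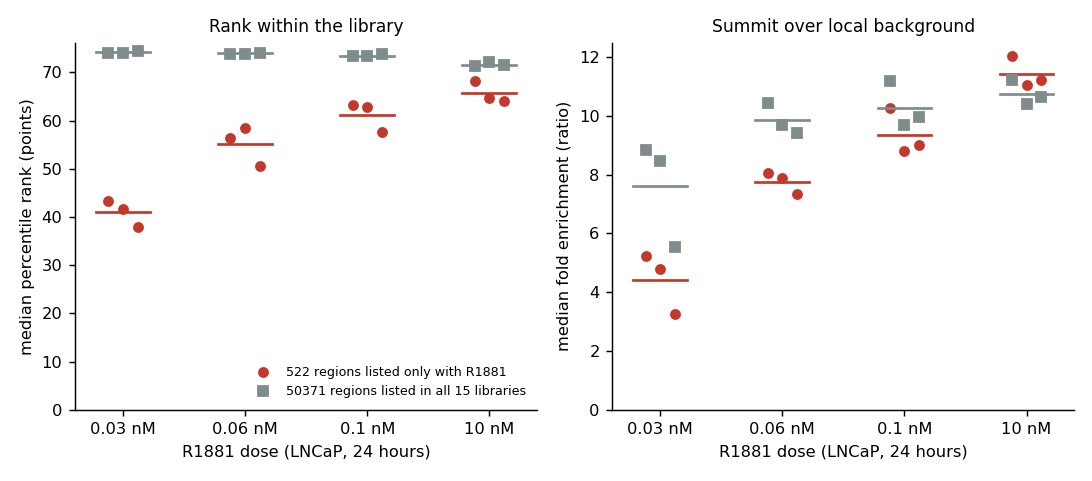
Median percentile rank (left, points) and median fold enrichment (right, ratio) of the 522 regions (circles) and of the 50371 always-listed regions (squares) in each LNCaP library with R1881; lines are means of the 3 libraries of a dose. The 522 regions stood at 64.0 to 68.3 rank points at 10 nM, against 37.9 to 43.4 at 0.03 nM, while the always-listed regions stayed between 71.3 and 74.3.

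Fold enrichment gave the same order without ranking. Its median over the 522 regions was 5.22, 4.78 and 3.27 at 0.03 nM, 8.05, 7.88 and 7.35 at 0.06 nM, 10.3, 8.79 and 9.004 at 0.1 nM, and 12.05, 11.04 and 11.2 at 10 nM. At 10 nM all 3 values lay above those of the same regions at 0.03 nM, and the low value of 3.27 belongs to 0.03 nM replicate 5, the library with low fold enrichment at always-listed regions too. Always-listed regions also stood higher in fold enrichment at 10 nM, with medians of 11.2, 10.4 and 10.7, against 8.83, 8.47 and 5.52 at 0.03 nM. The solved summit pileup, the number of fragments stacked at the summit, had medians over the 522 regions of 80, 94 and 78.5 at 10 nM and 28, 23 and 21 at 0.03 nM. Over always-listed regions it was 81, 115 and 99 at 10 nM and 62, 54 and 51 at 0.03 nM. Pileup is not corrected for depth, and the background pileup was 4.06, 5.10 and 4.13 at 10 nM and 3.98, 3.61 and 5.11 at 0.03 nM. Listed entries were also wider, with medians of 648, 816 and 750 bp at 10 nM and 406, 356.5 and 370 bp at 0.03 nM, and so were those of always-listed regions, with 780, 946 and 878 bp at 10 nM and 713, 689 and 745 bp at 0.03 nM.

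Over the 522 regions the spread between replicates was smaller at higher doses, and it was not computed for other regions. Ranks end at 100, and the regions stood nearer to that limit at higher doses. The part of this limit, and of 0.03 nM replicate 5, in the spread was not tested. The median over the 522 regions of the SD among the 3 libraries was 9.70 points at 0.03 nM, 7.37 at 0.06 nM, 6.13 at 0.1 nM and 4.74 at 10 nM. A mean rank above 80 was reached by 104 regions at 10 nM and by 1 at 0.03 nM. A mean above 50 was reached by 412 at 10 nM and 141 at 0.03 nM. Other regions above these limits were not counted. The mean rank stood higher at each of the 3 dose steps in 294 regions (56.3%). It did so in 10.96% of the always-listed regions and in 73.5% of the 189 regions dropped by the VCaP clause. The highest of the 4 means was at 10 nM in 357 regions (68.4%) and at 0.03 nM in 13 (2.49%). It was at 0.1 nM in 112 and at 0.06 nM in 40. The lowest mean was at 0.03 nM in 439 (84.1%). Among always-listed regions the highest mean was at 10 nM in 26.2% and at 0.03 nM in 38.8%, and the lowest at 0.03 nM in 24.9%. Among the dropped regions the highest was at 10 nM in 82.0% and the lowest at 0.03 nM in 94.2%.

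**Figure D2:**
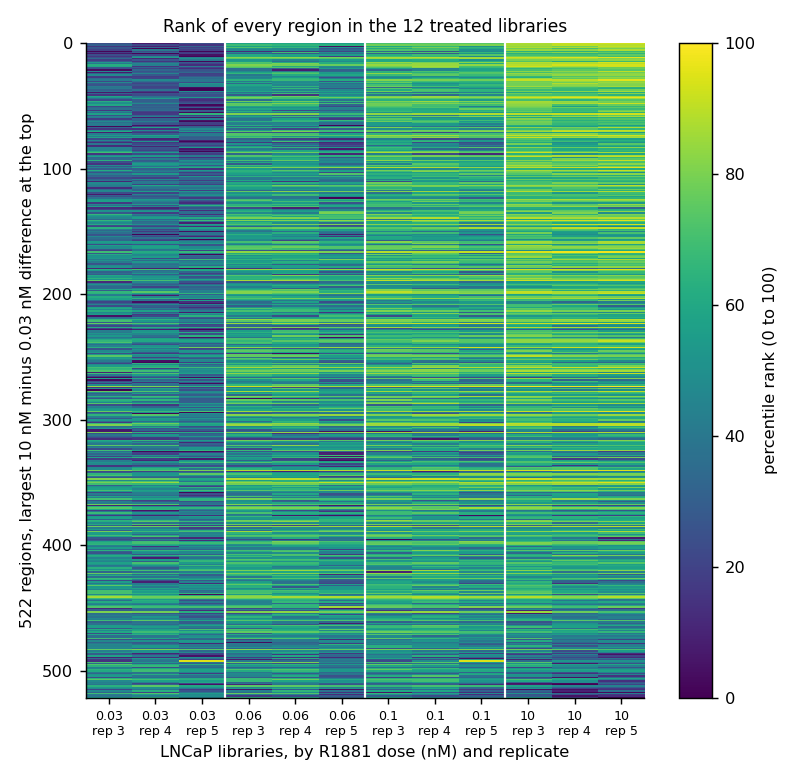
Percentile rank (colour, 0 to 100) of each of the 522 regions (rows) in the 12 LNCaP libraries with R1881 (columns, by dose and replicate), with the largest 10 nM minus 0.03 nM difference at the top. Most rows brighten from left to right, and 79 regions differ by more than 40 points between the highest and the lowest dose.

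The comparison of 10 nM with 0.03 nM asked whether regions already listed at the lowest dose gained further at the highest. The vehicle clause favours such a gain, so the counts below, and those of 0.1 against 0.03 nM, are not independent of the rule. Of the 522 regions, 291 were higher at 10 nM and 2 were lower at an adjusted p under 0.05, and 229 were not called. Over all 98634 spans tested, 9.81% were called higher and 13.7% lower. All spans tested came from the list of 0.03 nM replicate 3, so sites absent from that list could not enter. In 500 bp windows on summits of all 15 LNCaP libraries the balance turned, with 19981 of 150258 windows called higher and 15242 lower. Of the 521 regions with a window, 288 were called higher and 2 lower. The difference was positive in 475 regions (91.0%), with a median of 23.5 points and a range from −29.0 to 72.1, against a median of −2.47 points over all spans tested. In 356 regions (68.2%) all 3 libraries at 10 nM lay above all 3 at 0.03 nM, and 14.1% of all spans tested did so. The confidence interval of a region's difference reached 15.9 points to either side in the median, so smaller changes were mostly not resolved with 3 libraries a group. That interval is not adjusted for the number of spans tested, so larger differences could stay uncalled too. At an unadjusted p under 0.05 (limma) there were 360 regions in either direction, and 35508 of all 98634 spans tested.

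A rank shows a region's place among others and not its absolute signal. On log2 fold enrichment, at the 67859 spans with an entry in all 12 libraries, 484 of the 522 regions were higher and none lower. Of those spans, 27902 (41.1%) were higher and 969 lower on that scale, against 6177 higher and 10765 lower by rank at the 67802 of them tested by rank. The median of these spans moved by 0.48 on the log2 scale and that of the 522 regions by 1.32, and on both scales the median of the regions lay above that of all spans tested.

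**Figure D3:**
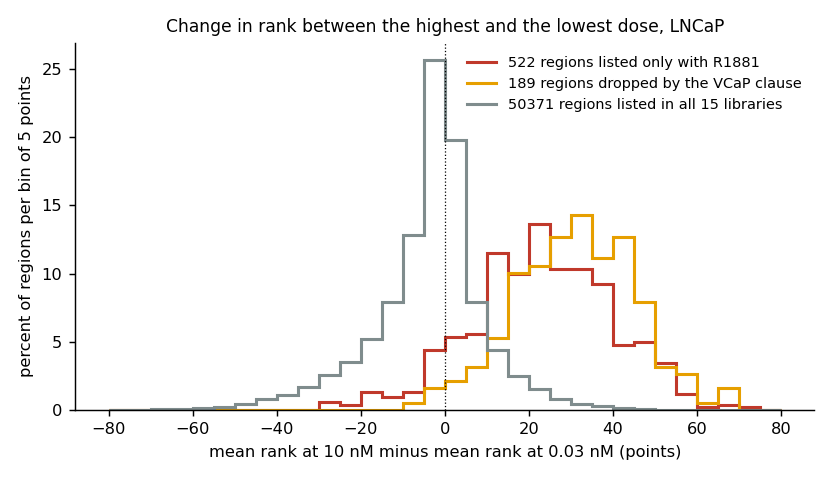
Distribution of the mean rank at 10 nM minus that at 0.03 nM (points, bins of 5) in percent of regions, for the 522 regions, the 189 regions dropped by the VCaP clause and the 50371 always-listed regions. The median is 23.5 points for the 522 regions, 31.0 for the dropped regions and −1.77 for the always-listed regions.

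Regions that started from a like rank were set side by side. Among regions with a mean rank from 30 to 50 at 0.03 nM, the 522 contributed 247, with a median difference of 24.1 points and 54.3% called higher. The always-listed regions contributed 6955, with a median of −1.84 points, 9.22% called higher and 5.29% lower. The 89 dropped regions in that range had a median of 34.0 points, with 77.5% called higher. Absence with vehicle is part of the rule, and presence with vehicle is part of the definition of always-listed regions. A like rank at 0.03 nM does not remove that difference. The values at a like rank and those that follow therefore only describe how the sets were chosen and support nothing further. Among the 56598 spans shared by all 12 treated libraries, the median difference was 25.2 points with no vehicle entry (711 spans), 17.9 with 1 (1181), 3.60 with 2 (4335) and −1.77 with 3 (50371).

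The largest rises were 56.3 to 72.1 points, at regions that were weakly listed at 0.03 nM. The largest was at chr9:89862613-89863185, with no protein-coding gene within 100 kb, where the ranks were 87.9, 91.3 and 92.7 at 10 nM, against 24.8, 7.315 and 23.7 at 0.03 nM. The difference was 72.1 points (SE 5.29, adjusted p = 2.86e-06). Near PPARGC1A, whose product is a coactivator of mitochondrial biogenesis, the region at chr4:24496671-24497128 lay 23.8 kb outside the gene body. Its ranks were 86.5, 90.3 and 89.3 at 10 nM, against 30.2, 21.5 and 15.1 at 0.03 nM. The difference was 66.5 points (SE 4.56, adjusted p = 2.61e-06), and its fold enrichment was 16.9, 15.95 and 16.2 at 10 nM and 4.26, 3.22 and 2.48 at 0.03 nM. No library of one dose reached the other in either region.

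Further rises of this size lay in and near genes for kinases and other proteins. Inside STK3, a kinase of the Hippo pathway, the region at chr8:98374381-98374647 had 84.0, 79.4 and 90.4 at 10 nM and 15.03, 9.69 and 31.9 at 0.03 nM, a difference of 65.7 points (SE 11.6, adjusted p = 0.001). The region 33.2 kb from MAP3K9, a kinase upstream of JNK, at chr14:70842665-70842905, had 88.0, 87.3 and 86.6 at 10 nM and 28.3, 32.4 and 18.6 at 0.03 nM, a difference of 60.9 points (adjusted p = 1.74e-05). Those inside ANKRD26 (chr10:26987706-26988208) and 2.06 kb from CDK5RAP3 (chr17:47983843-47984173) rose by 58.5 and 56.3 points (adjusted p = 0.000101 and 5.25e-05). The other rises of this size, at chr16:7974522-7974916 and chr12:19719632-19719871, had no protein-coding gene within 100 kb and differences of 58.7 and 56.9 points (adjusted p = 0.000188 and 0.000379).

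Only 2 regions were called lower at 10 nM, and neither had a protein-coding gene within 100 kb. At chr4:127224017-127224822 the ranks were 27.8, 4.98 and 13.0 at 10 nM, against 38.6, 42.9 and 49.3 at 0.03 nM, a difference of −28.4 points (SE 8.34, adjusted p = 0.0231). Its fold enrichment was 6.12, 5.24 and 5.85 at 10 nM and 5.02, 4.99 and 4.09 at 0.03 nM, so the signal over background did not fall while the place in the list did. At chr1:187968150-187968578 the ranks were 56.8, 45.6 and 44.3 at 10 nM, against 63.6, 74.3 and 59.8 at 0.03 nM, a difference of −17.0 points (SE 5.03, adjusted p = 0.0234). Both calls were lost under 8 of the alternative settings, with adjusted p from 0.0143 to 0.91 for the region on chromosome 4 and from 0.00039 to 0.355 for that on chromosome 1.

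Several regions were strong at every dose. The highest mean rank over the 12 libraries, 89.7, was at chr4:185350102-185350656 inside SNX25, a sorting nexin gene, with 98.6, 98.3 and 99.5 at 10 nM and 84.4, 79.9 and 63.9 at 0.03 nM. It rose by 22.7 points (SE 3.89, adjusted p = 0.00145). Next came the region 67.9 kb from CTAGE1 (chr18:22485814-22486267), with a mean of 87.4 over the 12 libraries and a rise of 16.8 points (adjusted p = 3.42e-05). The other regions of highest mean rank lay at chr16:59337451-59337854 and chr4:114466357-114466762, with no protein-coding gene within 100 kb, inside SLC38A4, OXCT1 and GIMAP1-GIMAP5, and 9.77 kb from GNLY. Their means over the 12 libraries were 83.6 to 85.7.

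Within that strong group the dose differences ran from 5.94 to 25.8 points, and 7 of its 8 regions were called higher at 10 nM. The region inside OXCT1 (chr5:41771435-41772264), which encodes an enzyme of ketone body use, rose by 21.1 points (SE 2.31, adjusted p = 3.5e-05). That at chr4:114466357-114466762 had 89.2, 82.7 and 88.9 at 10 nM and 86.2, 77.4 and 79.5 at 0.03 nM, a difference of 5.94 points that was not called (adjusted p = 0.0994, interval 0.621 to 11.3). The call at GNLY, which encodes the cytotoxic protein granulysin of lymphocytes, was lost under 8 of 26 alternatives, with adjusted p from 0.00117 to 0.821, among them the settings without 0.03 nM replicate 5 and without each 10 nM library in turn.

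The comparison of 0.1 nM with 0.03 nM showed that much of the difference was present between the low doses. Of the 522 regions, 138 were higher at 0.1 nM and none was lower, while 2.61% of all spans tested were called higher and 1.06% lower. The difference was positive in 492 regions (94.3%), with a median of 18.5 points, against −0.65 over all spans tested. In 305 regions all 3 libraries at 0.1 nM lay above all 3 at 0.03 nM, against 9.15% of all spans tested. The count of 138 was 72 without 0.1 nM replicate 3, 68 without replicate 4 and 92 without replicate 5, and 18 when the fit held only the 6 libraries compared. At an unadjusted p under 0.05 there were 312 regions in either direction, and 16.7% of all spans tested. Same-numbered libraries of these 2 doses deviated together, and with the replicate number as a block 202 regions and 4.2% of all spans were called higher, with 5879 spans called in either direction, against 3621 without the block. On log2 fold enrichment 429 of the 522 were higher. Of the spans with an entry in all 12 libraries, 14058 (20.7%) were higher and 5 lower on that scale, against 1761 and 363 by rank, with their median moved by 0.42.

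PPARGC1A showed the largest difference of the set between 0.1 and 0.03 nM. Its region had 78.5, 77.7 and 80.2 at 0.1 nM, against 30.2, 21.5 and 15.1 at 0.03 nM, a difference of 56.5 points (adjusted p = 4.83e-05). At 0.06 nM it had 68.4, 65.5 and 64.3, above every library at 0.03 nM.

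Between 10 nM and 0.1 nM no region was called higher and 1 was called lower. Over all spans tested 0.762% were called higher and 2.68% lower. In 500 bp windows on summits of all 15 LNCaP libraries the balance turned here too, with 5522 of 150258 called higher and 3586 lower. The median difference of the 522 regions was 4.67 points, positive in 375 (71.8%), against −1.31 over all spans tested. In 148 regions all 3 libraries at 10 nM lay above all 3 at 0.1 nM (8.07% of all spans tested did so), and 72 regions had an unadjusted p under 0.05 in either direction, a share of the set no higher than the 15.7% of all spans tested. The single call was the region at chr1:187968150-187968578, with a difference of −19.2 points (adjusted p = 0.0499). With the 50000 strongest spans of each list, 35 of the 457 regions then tested were called higher, and 2.6% of all spans. When only entries with a −log10 q of 5 or more were used, 28 of 503 were called higher, and 2.18% of all spans. On log2 fold enrichment no region of the 522 was called either way, and at the spans with an entry in all 12 libraries 63 were higher and 80 lower, against 197 and 2490 by rank. These 3 comparisons share libraries pairwise, so their counts are not independent of each other.

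Genes near the regions included some known targets of the androgen receptor. The 394 regions with a protein-coding gene within 100 kb were assigned to 388 genes, 2.25% of the 17278 genes with at least 1 of the 100000 spans. The assignment goes by distance alone, and no measurement here ties a gene's activity to its region. Of 58 androgen-induced genes with a span, 3 had one of the 522 regions: FKBP5, NNMT and SLC38A4. Counted by span, 0.569% of the 527 spans assigned to these genes were among the 522 regions. Over the 85759 spans assigned to any gene the share was 0.459%. KLK3, the gene of prostate-specific antigen, and HERC3 had a region among the 189 that were dropped. All 3 regions of the list were higher at 10 nM than at 0.03 nM, with a median difference of 25.8 points.

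The region at FKBP5, which encodes a co-chaperone of steroid receptors and is induced by androgens and glucocorticoids, lay inside the gene body at chr6:35610936-35611350, 118 kb downstream of the listed start. Its ranks were 89.7, 91.5 and 95.5 at 10 nM, against 44.4, 58.1 and 61.2 at 0.03 nM. The difference was 37.7 points (SE 3.76, adjusted p = 1.9e-05) with no overlap between the groups, and fold enrichment was 15.9, 12.5 and 15.5 at 10 nM and 5.62, 6.95 and 5.07 at 0.03 nM. In VCaP an entry was present in 2 libraries.

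SLC38A4, which encodes an amino acid transporter, held a region at chr12:46792989-46793421 with ranks of 92.4, 96.6 and 94.9 at 10 nM and 76.0, 71.2 and 59.3 at 0.03 nM. The difference was 25.8 points (SE 3.16, adjusted p = 7.49e-05). Inside NNMT, the gene of nicotinamide N-methyltransferase, the region at chr11:114281490-114281798 had 60.3, 66.2 and 63.9 at 10 nM and 30.6, 54.7 and 38.5 at 0.03 nM. Its difference was 22.2 points (SE 6.39, adjusted p = 0.0205), and the call was lost under 5 of 26 alternatives, with adjusted p from 0.00433 to 0.733, among them those without 0.03 nM replicate 3 and without 10 nM replicate 4 or 5.

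Apart from the housekeeping list, the other gene lists held 1 to 3 genes with a region each. Of 24 glucocorticoid receptor targets shared with the androgen receptor, FKBP5 and FOXO1 had one. The region at chr13:40476482-40476878 lay 78.8 kb from the gene body of FOXO1, a transcription factor restrained by PI3K signalling, with ranks of 80.6, 83.5 and 80.3 at 10 nM and 56.1, 44.0 and 39.9 at 0.03 nM. It rose by 34.8 points (SE 4.90, adjusted p = 0.000201). Of 16 androgen-repressed genes, SI, which encodes sucrase-isomaltase, had a region 47.3 kb away (chr3:165137538-165137868) with 84.6, 86.8 and 87.5 at 10 nM and 54.2, 53.9 and 44.1 at 0.03 nM, and it rose by 35.6 points (adjusted p = 0.000151). Of 30 metabolic genes only PPARGC1A had one.

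Among 31 luminal and pioneer factor genes, GRHL2, NFIB and SOX4 had a region, and 1 of the 3 was called. By span these 3 regions were 0.862% of the 348 spans of the list, against 0.459% over spans assigned to any gene. Inside GRHL2, a grainyhead factor of epithelial cells, the region at chr8:101572727-101573108 had 81.5, 82.6 and 78.5 at 10 nM and 70.6, 56.6 and 69.1 at 0.03 nM, and it rose by 15.4 points (adjusted p = 0.00749). Ranked by fold enrichment instead it was not called (adjusted p = 0.7, from 0.00356 to 0.7 over the alternatives). The region 11.99 kb from NFIB, a factor of the NFI family, at chr9:14544066-14544435, had 57.9, 62.4 and 59.7 at 10 nM and 53.9, 19.7 and 33.8 at 0.03 nM (adjusted p = 0.0558). That 79.3 kb from SOX4 (chr6:21514047-21514452) had 35.9, 44.9 and 46.1 at 10 nM and 16.6, 38.3 and 2.88 at 0.03 nM (adjusted p = 0.114), and its groups overlapped.

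Of 23 growth arrest and cell cycle genes with a span, BTG1 and E2F7 had a region. By span these 2 regions were 1.48% of the 135 spans of the list, against 0.459% over spans assigned to any gene. The region 98.3 kb from BTG1, an antiproliferative gene, at chr12:92244117-92244341, had 73.4, 80.9 and 82.1 at 10 nM and 42.1, 53.5 and 29.4 at 0.03 nM, and it rose by 37.1 points (SE 6.49, adjusted p = 0.000958). That 2.08 kb from E2F7, a repressor of the E2F family (chr12:77018874-77019175), had 34.1, 56.6 and 49.4 at 10 nM and 25.6, 50.1 and 0.945 at 0.03 nM (adjusted p = 0.175). No region was assigned to any of the 17 housekeeping genes with a span. These genes had 72 spans, too few to tell such an absence from the share of 0.459% over spans assigned to any gene.

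**Figure D4:**
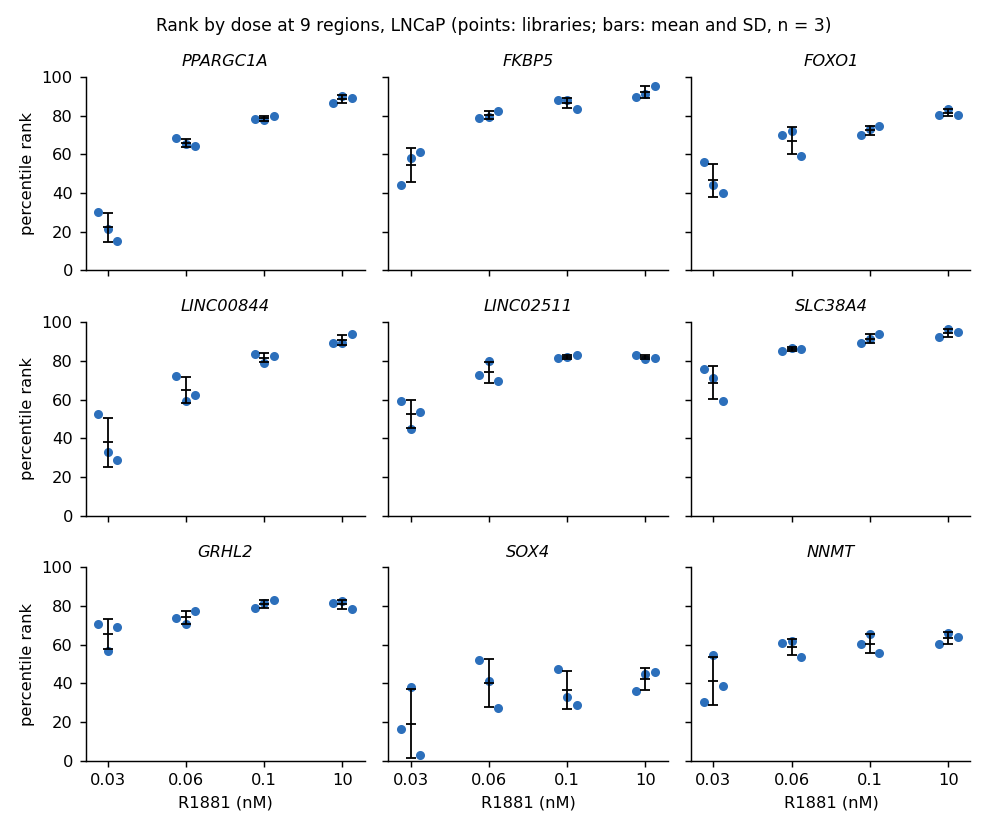
Percentile rank by R1881 dose in LNCaP at regions assigned to 7 protein-coding genes and at the promoters of LINC00844 and LINC02511; points are libraries, bars the mean and SD (n = 3). At PPARGC1A the libraries had 86.5 to 90.3 at 10 nM, against 15.1 to 30.2 at 0.03 nM, while at SOX4 the libraries of 10 nM and 0.03 nM overlapped.

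Some genes had more than 1 region. CHRM3, PHF24, ATP8A2, CLDN10, EFR3A and CCDC178 each had 2 of the regions, and no gene had more. Inside ATP8A2, which encodes a phospholipid flippase, the region at chr13:25487915-25488466 had 67.3, 72.9 and 65.8 at 10 nM, against 15.8, 14.8 and 48.8 at 0.03 nM, and rose by 42.2 points (adjusted p = 0.00328). The second, at chr13:25496581-25496877, had 59.6, 49.9 and 13.9 at 10 nM and 47.2, 57.2 and 55.1 at 0.03 nM, a difference of −12.0 points (adjusted p = 0.406). Without 10 nM replicate 5 that difference was 1.60 points.

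In CCDC178 the region at chr18:33102777-33103205 rose by 37.2 points (adjusted p = 0.0102), and that at chr18:33232147-33232470 differed by 3.23 points (adjusted p = 0.826), and by −1.88 points without 10 nM replicate 4. Whether the members of a pair differed from each other was not tested. Both regions assigned to PHF24 rose, by 49.3 and 42.8 points (adjusted p = 0.000158 and 0.000472). So did both of CLDN10, a tight junction gene, by 25.1 and 32.3 points (adjusted p = 0.0144 and 0.0104), and both of EFR3A, which encodes a membrane scaffold, by 13.7 and 31.0 points (adjusted p = 0.00836 and 0.0112). At CHRM3, the gene of a muscarinic acetylcholine receptor, 1 region rose by 18.0 points (adjusted p = 0.0373) and the other differed by 23.5 points (adjusted p = 0.0606). The calls of the first CHRM3 region and of CLDN10 and one of EFR3A were among those lost under some alternatives.

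A small share of the 522 regions lay at the ends of genes. Within 1 kb of either end of a protein-coding gene were 8 regions (1.53%), against 22.4% of always-listed regions and 13.4% of all 100000 spans. The median distance to the nearest gene end was 53.7 kb, against 16.4 kb and 25.8 kb. Inside a gene body were 257 regions (49.2%), against 64.2% of always-listed regions and 58.4% of all spans, with exons and introns not separated. No protein-coding gene lay within 100 kb of 128 regions (24.5%), against 10.1% and 14.2%. The 189 regions dropped by the VCaP clause were placed much like the 522. Of these 1.06% lay within 1 kb of a gene end, 50.8% inside a gene body and 19.0% with no protein-coding gene within 100 kb. Their median distance to a gene end was 45.3 kb. These shares are descriptions over sets that differ in width, with a median of 406 bp for the 522, 413 bp for the dropped and 713 bp for the always-listed regions.

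Regions were scattered, and all chromosomes carried some. Only 4 regions lay within 50 kb of another. The nearest summit in a vehicle library was at a median distance of 4.83 kb, and 76.4% of regions had one within 10 kb. Chromosome 4 held the most, 42 regions or 8.05% of the set, against 5.48% of all spans, and chromosome 19 held 3, or 0.575%, against 3.01%. Chromosome 13 held 25 regions, 4.79% of the set, against 2.14% of all spans.

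Besides the 2 long non-coding RNA promoters, a few regions lay within 1 kb of an annotated start. At AKAP7, which encodes a kinase-anchoring protein, the region at chr6:131134411-131134714 lay 0.864 kb upstream of the listed start and inside the gene body, with ranks of 76.6, 74.2 and 72.9 at 10 nM and 53.5, 34.5 and 35.6 at 0.03 nM. It rose by 33.4 points (SE 6.16, adjusted p = 0.00138). When an entry's summit had to lie within the span it was not called (adjusted p = 0.196, from 0.000131 to 0.196 over the alternatives). At IL22RA2, the gene of a soluble decoy receptor for interleukin 22, and at LNPEP, the gene of a membrane aminopeptidase, the regions at chr6:137174105-137174339 and chr5:96958529-96958920 differed by 13.1 and 10.9 points (adjusted p = 0.117 and 0.346).

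In VCaP, where the rule only removed spans with an entry in all 3 libraries at 10 nM and in no vehicle library, many of the 522 regions were listed too. The number with an entry in replicates 1, 2 and 4 was 193, 105 and 179 with vehicle, 253, 146 and 224 at 0.01 nM, 296, 176 and 259 at 0.03 nM, 335, 244 and 304 at 0.06 nM, and 323, 271 and 321 at 10 nM. Replicate 2 had the fewest in every group, and vehicle replicates 1 and 2 had background pileups of 1.14 and 1.09, against 1.78 to 2.74 in the other VCaP libraries. The part of depth in these counts was not tested. An entry in all 15 VCaP libraries was found at 59 regions (11.3%), and in none at 110 (21.1%). Among always-listed regions those shares were 52.2% and 5.30%. An entry in no VCaP vehicle library was found at 260 regions and in all 3 at 69.

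**Figure D5:**
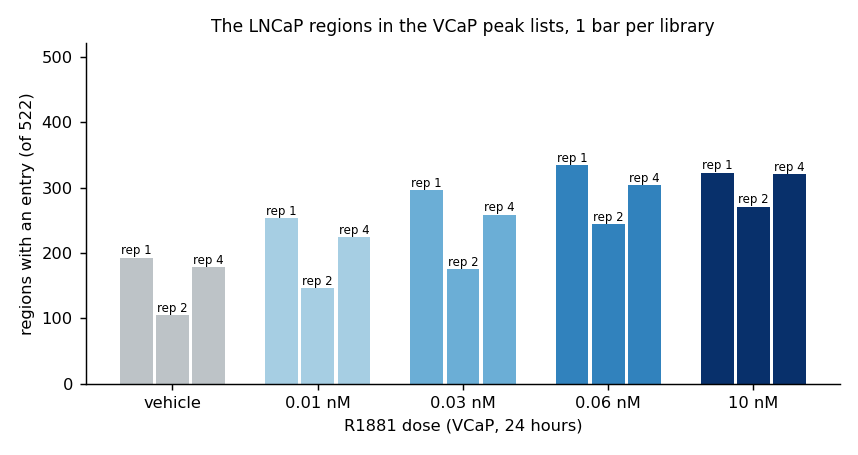
Number of the 522 LNCaP regions (y axis, to 522) with at least 1 entry in each VCaP library, by R1881 dose in nM; bars are single libraries. Counts were 271 to 323 at 10 nM, against 105 to 193 with vehicle, and the rule capped how many regions could be listed at 10 nM without vehicle.

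LNCaP dose differences were present in regions with and without a VCaP entry. The vehicle clause of the rule favours such differences. The 59 regions listed in all 15 VCaP libraries had a median LNCaP difference of 24.6 points between 10 nM and 0.03 nM, with 38 (64.4%) called higher. The 353 listed in some had a median of 24.0 points and 209 called higher, and the 110 listed in none had 20.3 points and 44 called higher. Whether the called shares differ was not tested. The region inside SNX25 had mean VCaP ranks of 58.5 with vehicle, 84.5 at 0.01 nM, 93.6 at 0.03 nM, 98.2 at 0.06 nM and 99.1 at 10 nM. That near BTG1 and that at the LINC02511 promoter had no VCaP entry at any dose.

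The set's edge was set by the length of the lists. Just inside, a region at chr4:60662399-60662888 stood at place 99999 of its weakest list, that of 10 nM replicate 4, with −log10 p of 13.3 and a fold enrichment of 4.92. Just outside, a span at chr4:152106127-152106436 stood at place 100186 in 10 nM replicate 3, with −log10 p of 7.498 and a fold enrichment of 3.78. A further 601 spans missed the set in 1 of the 12 treated libraries. An entry in 1 vehicle library alone excluded 1181 shared spans before the VCaP clause. The vehicle clause depends on what each list holds: leaving out vehicle replicate 3, 4 or 5 gave 927, 950 or 691 regions.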

How the data were processed

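The 30 deposited lists are narrowPeak files, 1 per library, on GRCh38 (hg38). For their making, the submitters' processing notes list MACS2 in version 2.2.7.1 beside Trimmomatic in version 0.39, deepTools in version 3.5.1 and BWA in version 0.7.17. In the deposited score column the authors give 10 times −log10 p as a whole number. The authors' ratio column is a summit's fold enrichment over the background around it. Further deposited columns give −log10 p, −log10 q and the summit's offset in bp.

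Entries with the same span were reduced to the strongest. From each list the 100000 strongest spans were used (93180 in VCaP). The value of a span in a library is the rank percentile that its best overlapping span (1 bp or more) has by −log10 p, or 0. limma 3.58.1 in R 4.3.3 (trend, robust) fitted the 4 dose means over the 12 treated LNCaP libraries. The 98634 spans tested were unique spans of the 0.03 nM replicate 3 list that were listed in at least 3 of these libraries. Tests were two-sided, with Benjamini-Hochberg adjustment over all spans and calls at 0.05. All 522 regions passed that filter because the rule requires them in every library. Libraries of 0.1 and 0.03 nM with the same replicate number deviated together from their dose means (correlations of 0.15, 0.17 and 0.34). The median over same-numbered pairs of all doses was 0.21, against −0.16 over pairs with other numbers. Deviations from a dose mean sum to 0, so the negative value follows from the positive one and adds nothing. Replicates 3 and 4 were hardly told apart: 0.03 nM replicate 4 had 0.12 with 0.1 nM replicate 3 and 0.17 with replicate 4. The pairing comes from this check, as the labels do not say what a number marks. The code was tested on simulated data. Of 50 low-ranked spans given a shift of 30 points at 10 nM, 2 were called, and of 50 given 60 points 38 were called. Few spans changed in that simulation, unlike in the data, so these shares do not carry over to the 522 regions. Solving fold enrichment and −log10 p under a Poisson model gave whole-number pileups (within 0.05) for 100% of solved entries.

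Spans were assigned to the nearest of 19970 RefSeq protein-coding gene bodies within 100 kb. Named regions are the 8 of highest mean rank, the 8 largest rises and falls among called regions without overlap, the 6 genes with most regions, up to 5 genes per list (12 for the androgen-induced list), up to 5 near a start and those at the limit of the rule. The regions and lists were chosen with earlier results of these data known. No genome sequence was used here, so sequences within spans were not read. Promoters on chromosome 8, which holds 29 of the regions, were not analysed here.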

Additional observations from a re-analysis of the deposited data

How the results depend on the processing

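The direction of the median difference of the 522 regions was kept in all 3 comparisons under all 26 alternatives. For 10 nM against 0.03 nM, the count of regions called higher (291) was 236 to 298 on leaving out 1 library, and 484 on log2 fold enrichment. The 2 called lower were 0 to 4 on leaving out 1 library, 0 with normal scores, log2 fold enrichment, all entries or only the 6 libraries, 1 with the 50000 strongest spans, −log10 q of 5 or more, 0.5 of the span covered or all 15 libraries, 4 with fold enrichment ranks and 5 with the replicate block. All spans called (23162) were 15938 to 24213 on leaving out 1 library, 13432 with the 50000 strongest and 35223 in 500 bp windows.

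For 0.1 nM against 0.03 nM, the 138 regions called higher were 68 to 160 on leaving out 1 library, 429 on log2 fold enrichment, 82 with no filter and 18 with only the 6 libraries. The count called lower was 0 on leaving out any library and 1 when a summit had to lie within the span. All spans called (3621) were 1279 to 4382 on leaving out 1 library, 14063 on log2 fold enrichment, 1905 with all entries, 2280 with the 50000 strongest, 1792 with all 15 libraries, 206 with only the 6 and 5879 with the replicate block.

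For 10 nM against 0.1 nM, the count called higher (0) was 0 to 2 on leaving out 1 library, 6 with fold enrichment ranks, 12 with normal scores, 35 with the 50000 strongest, 28 with −log10 q of 5 or more, 3 with no filter, 1 in windows, 2 with only the 6 libraries and 5 with the replicate block. The 1 called lower was 0 to 1 on leaving out 1 library, 2 with fold enrichment ranks and 0 with normal scores, log2 fold enrichment, all entries, the 50000 strongest, 0.5 of the span covered, no filter, all 15 or only the 6 libraries. All spans called (3398) were 1257 to 4254 on leaving out 1 library, 143 on log2 fold enrichment, 572 with all entries, 9108 in windows, 200 with only the 6 libraries and 6271 with the replicate block.

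The set itself (522) was 523 to 950 on leaving out 1 library, among them 847 without 0.03 nM replicate 5, 59 with the 50000 strongest spans, 396 when the 100000 strongest entries were taken before removing repeated spans, 689 with 0.5 of the span covered (442 of the 522 found again), 803 with all treated entries and 859 when only the 100000 strongest vehicle spans excluded a region. Of the named regions, 35 were called at 10 nM against 0.03 nM and 23 kept the call under every alternative. The sign turned for chr4:114466357 (−0.87 points) and GNLY (−3.06) with fold enrichment ranks, and for chr4:127224017 on log2 fold enrichment (0.29) and with 0.5 of the span covered (2.38). It also turned for ATP8A2 on log2 fold enrichment (0.11), with all entries (0.10) and without 10 nM replicate 5 (1.60, with −21.3 as the lowest on leaving out 1 library), and for CCDC178 without 10 nM replicate 4 (−1.88, with 10.6 as the highest). The causes were not tested.

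The numbers are taken as a pairing for 0.1 against 0.03 nM alone. With 10 nM, replicate 4 deviated against its number (−0.12 with 0.03 nM and −0.17 with 0.1 nM) and together with 0.1 nM replicate 5 (0.34). The block there is a fit on shared numbers. With the replicate block, 327, 202 and 5 of the 522 regions were called higher at 10 nM against 0.03 nM, 0.1 against 0.03 nM and 10 against 0.1 nM. A region without an entry may hold signal below the authors' threshold, and with 3 libraries a group small changes are not resolved. The planned sequence windows in spans were not run, as no genome sequence was used here.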

Other observations

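A region 0.561 kb upstream of the listed start of PHF8, which encodes a histone demethylase, was singled out after its values were seen because 2 libraries stood far above the rest. The region at chrX:54045554-54045808, 255 bp wide, had ranks of 95.2 in 0.03 nM replicate 5 and 94.7 in 0.1 nM replicate 5, and of 14.3 to 52.7 in the other 10 treated libraries. The overlapping entry was 2179 and 2150 bp wide in those 2 libraries and 240 to 601 bp wide in the others. The nearest vehicle summit lay 1.06 kb from the region's summit. Over all regions and libraries, 70 of 6264 overlapping entries were more than 5 times as wide as the region, at 18 of the 522 regions. Their part in other results was not tested.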
